A study of Sus scrofa with 6 samples.

Results

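miR-103 and miR-107 are near-identical microRNAs (miRNAs, short RNAs that guide Argonaute proteins to target transcripts). They were followed here in 6 small RNA libraries made from immature Sertoli cells of the pig, the somatic cells of the seminiferous tubule, in culture. The members were every row of the deposited table named miR-103 or miR-107, with any copy number or arm suffix, and 2 of 1645 rows matched: ssc-miR-103 and ssc-miR-107. Neither name carries an arm suffix and no second arm of either hairpin was listed, so arm use was not compared. The cells came from testes at 80 to 90 days of gestation and were kept in medium with 10% fetal bovine serum. After 6 h in culture they were either given AA2P (L-ascorbic acid 2-phosphate, a stable vitamin C derivative) at 250 µM or left without it (control), with 3 libraries in each group. Neither the duration of the exposure nor the origin of the 3 libraries of a group (separate cultures, animals or pools) is given in the labels, so the p-values rest on library-to-library spread alone, which may be technical. The comparison asked whether AA2P was accompanied by a different level of either miRNA.

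In mammals both miRNAs are encoded inside genes for pantothenate kinases, the enzymes of the rate-controlling step of coenzyme A synthesis. They share their seed, the bases near the 5′ end that pair with targets, and differ near the 3′ end, so they are expected to have largely the same targets. In mouse and human cells they are known to repress DICER1, which matures miRNAs, and CAV1 (caveolin-1), through which they lower insulin sensitivity in mouse. Human miR-107 is also known as a p53-responsive miRNA that represses CDK6 and the hypoxia partner ARNT. In the RefSeq annotation of the pig assembly Sscrofa11.1, which was used only for names and neighbours, the hairpin MIR107 lies within the span of PANK1, MIR103-1 within PANK3 and MIR103-2 within PANK2. The table has a single row for miR-103, so the shares of its PANK2 and PANK3 copies could not be separated. PANK transcripts were not measured by these small RNA libraries.

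miR-103 was among the abundant miRNAs of these cells, and miR-107 was an order of magnitude rarer. miR-103 stood at 6639, 5950 and 5947 TPM in AA2P replicates 1, 2 and 3, against 5887, 4853 and 5853 TPM in control replicates 1, 2 and 3, where TPM is the authors' count scaled to a common library total. Among 358 known pig miRNAs it ranked between 16 and 18 in AA2P libraries and between 18 and 20 in control libraries. The lowest AA2P library lay just above the highest control library, and control replicate 2 lay below all the others. miR-107 stood at 791.2, 791.9 and 697.6 TPM in AA2P replicates 1, 2 and 3, against 546.8, 434.6 and 532.4 TPM in control replicates 1, 2 and 3, at ranks of 71 to 72 in AA2P and 73 to 79 in control libraries. Here the groups lay well apart, with control replicate 2 again the lowest. The step between the lowest values of a library put the depth at 26.9 to 36.0 Mreads in AA2P and 25.8 to 32.2 Mreads in control libraries. A value of miR-107 then rested on 21261 to 28487 reads in AA2P and 14015 to 16147 reads in control libraries, and its counting error was at most 0.845%. Counting error covers neither library preparation nor culture.

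**Figure D1:**
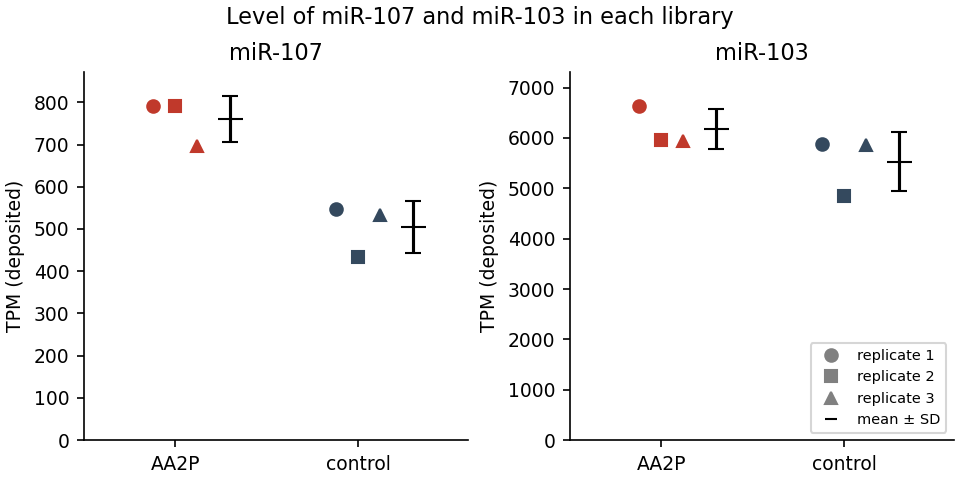
Level of miR-107 (left) and miR-103 (right) in each library, in deposited TPM on axes that start at 0. Points are libraries, marked by replicate number, and the bar is the mean ± SD of 3 libraries. miR-107 lies between 697.6 and 791.9 TPM with AA2P and between 434.6 and 546.8 TPM in controls, while the 2 groups of miR-103 nearly touch.

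miR-107 rose with AA2P, and the change of miR-103 did not pass the test. miR-107 averaged 760.2 ± 54.3 TPM in AA2P and 504.6 ± 61.0 TPM in control libraries (SD, n = 3 each), a 1.51-fold difference. Its log2 fold change, taken on log2(TPM + 1) with AA2P over control, was 0.60 (SE 0.114, 95% interval 0.32 to 0.87, limma adjusted p = 0.0136, higher in 3 of 3 AA2P libraries). miR-103 averaged 6179 ± 398 TPM in AA2P and 5531 ± 588 TPM in control libraries, a 1.12-fold difference. Its log2 fold change was 0.16 (SE 0.10, 95% interval -0.08 to 0.41, limma adjusted p = 0.271), and the interval does not exclude a rise of up to 0.41. Thus 1 of the 2 members was called, where 24.7% of the 433 tested entries were called in either direction, 19.9% as higher and 4.85% as lower. The 2 groups did not overlap for either member, which was also so for 49.7% of tested entries. By size of log2 fold change miR-107 took place 88 and miR-103 place 256 of the 433, counted from the highest rise, and the median of all tested entries was 0.25. miR-107 was called in 15 of 18 alternatives, including the 6 that left out 1 library (limma adjusted p = 0.0245 to 0.0430), and lost its call under 3 other scalings of the libraries. miR-103 was called in 0 of the 18. In bulk RNA such as this, fewer cells of a type and less RNA per cell cannot be told apart.

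The balance within the pair shifted toward miR-107. There were 11.9, 13.3 and 11.7 miR-107 per 100 miR-103 in AA2P replicates 1, 2 and 3, against 9.29, 8.96 and 9.10 per 100 in control replicates 1, 2 and 3. All AA2P libraries lay above all control libraries, and the control libraries lay close together although both miRNAs were low in control replicate 2. The ratio averaged 12.3 ± 0.863 per 100 in AA2P and 9.11 ± 0.167 per 100 in control libraries (SD, n = 3 each), and miR-107 made up 11.0% ± 0.681 of the pair in AA2P and 8.35% ± 0.140 in controls. Any scaling of a library by 1 factor cancels in this ratio. The mean log2 ratio was -3.02 ± 0.0992 with AA2P and -3.45 ± 0.0261 in controls, a difference of 0.43, with a two-sided exact permutation p = 0.1, the smallest that 3 against 3 libraries allow (0.125 when adjusted over the 5 such tests made).

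When each tested entry was divided by miR-103 in its own library and fitted by limma, the response of miR-107 exceeded that of miR-103 by 0.43 on the log2 scale (SE 0.0762, 95% interval 0.25 to 0.62, limma adjusted p = 0.0171). In that fit 16.9% of the other 432 entries were called. The difference was 0.37 to 0.47 when any 1 library was left out. Its call ended without AA2P replicate 1 or 3 (limma adjusted p = 0.0510 and 0.0539) and without control replicate 1 or 3 (limma adjusted p = 0.0650 and 0.0678). It also ended when the replicate number was fitted as a block (limma adjusted p = 0.0530). How the authors assigned reads that match both near-identical miRNAs is not given in the sources used here. Both the ratio and the sum of the pair may depend on it. The part of such reads in the shift was not tested.

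**Figure D2:**
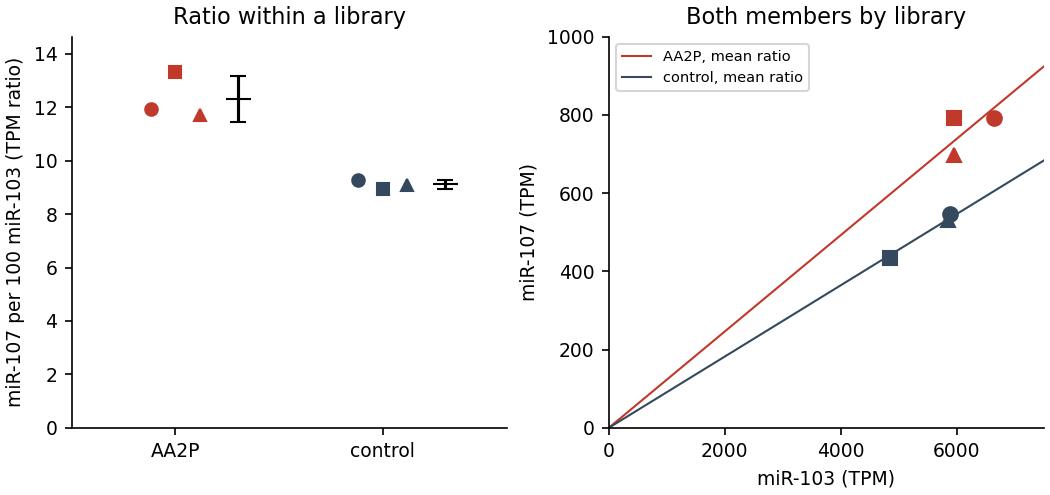
Left, miR-107 per 100 miR-103 in each library, with the mean ± SD of 3 libraries. Right, miR-107 against miR-103 in TPM, 1 point per library, with lines through 0 at the mean ratio of each group (12.3 per 100 with AA2P, 9.11 per 100 in controls). The AA2P points lie above the control line, and control replicate 2 sits low on both axes but on its group's line.

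Within the control group the members moved closely together, and less so within the AA2P group. In AA2P libraries miR-103 deviated from its group mean by 7.45%, -3.70% and -3.75% in replicates 1, 2 and 3, and miR-107 by 4.07%, 4.17% and -8.24%. In control libraries miR-103 deviated by 6.43%, -12.3% and 5.83% in replicates 1, 2 and 3, and miR-107 by 8.36%, -13.9% and 5.50%. Both members were lowest in control replicate 2, whereas in AA2P replicate 2 they deviated in opposite directions. The SD of the log2 ratio was 0.0992 in AA2P and 0.0261 in control libraries, the 81st and the 9th smallest among the 203 known miRNAs with a mean of at least 10 TPM set against miR-103. Pooled within the groups, which leaves out the difference between group means, the SD of the log2 ratio was 0.0725. Pooled likewise, it was 0.148 for miR-107 alone and 0.129 for miR-103 alone. miR-107 had the 17th smallest pooled SD of the ratio among the 203, where the median was 0.154 and the smallest was that of miR-34a (0.0227). Libraries share a total in TPM, so some joint movement is built into these values.

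The direction of miR-103, and the call of miR-107, depended on how the libraries were scaled. miR-21-5p, the dominant miRNA, held 37.0 to 44.1% of the TPM in AA2P and 51.3 to 53% in control libraries, and a smaller share of it raises the TPM of the other entries. Other scalings shifted the median of all tested entries by -0.26 to -0.18 on the log2 scale. The fold change of miR-103 became -0.11 with trimmed-mean scaling, -0.13 with median-of-ratios scaling, -0.13 with totals without miR-21-5p and -0.03 with totals without the 10 most abundant miRNAs, and was 0.24 with quantile normalization (limma adjusted p = 0.0835 to 0.815). That of miR-107 remained positive under all 5. It passed with median-of-ratios scaling (0.31, limma adjusted p = 0.0469) and with totals without the 10 most abundant miRNAs (0.40, limma adjusted p = 0.0182). It did not pass with trimmed-mean scaling (0.32, limma adjusted p = 0.0515), totals without miR-21-5p (0.30, limma adjusted p = 0.0862) or quantile normalization (0.14, limma adjusted p = 0.340).

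Relative to the median of all tested entries, miR-107 stood 0.35 higher in the deposited TPM and 0.31 to 0.33 higher under the scalings by 1 factor. miR-103 stood 0.08 below that median in the deposited TPM and 0.11 to 0.12 below it under the scalings by 1 factor. Quantile normalization, which replaces values by those of their rank, put miR-103 0.26 above it and miR-107 0.15 above it, and is the scaling under which miR-107 did not exceed miR-103. The share of tested entries called was 21.5% with trimmed-mean scaling (44 higher and 49 lower), 22.9% with median-of-ratios scaling (48 and 51) and 20.1% with quantile normalization (45 and 42). It was 18.9% with totals without miR-21-5p (39 and 43) and 21.0% with totals without the 10 most abundant miRNAs (55 and 36), against 86 higher and 21 lower in the deposited TPM.

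**Figure D3:**
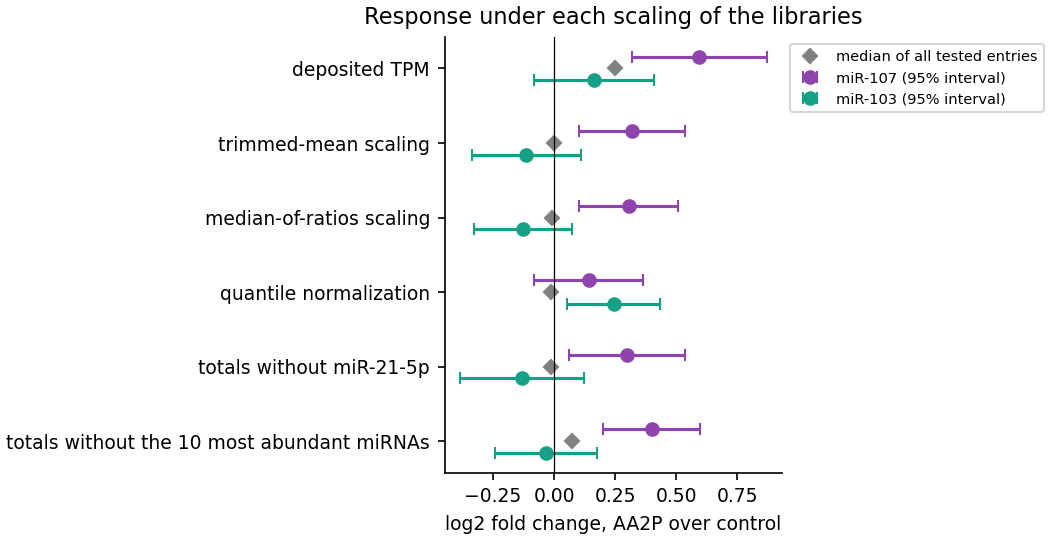
Log2 fold change (AA2P over control) of miR-107 and miR-103 with the 95% interval from limma, and the median of all tested entries, under the deposited TPM and 5 other scalings. The gap between the members is 0.43 in all rows but quantile normalization, where it is -0.10, and miR-103 lies below 0 in 4 of the 5 other scalings.

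The summed level of the pair followed miR-103. It was 7430, 6742 and 6645 TPM in AA2P replicates 1, 2 and 3, against 6434, 5288 and 6386 TPM in control replicates 1, 2 and 3. The groups did not overlap, and the mean difference was 903 TPM (two-sided exact permutation p = 0.1, adjusted 0.125 over the 5 tests). As a share of the TPM outside miR-21-5p, the pair held 1.29%, 1.07% and 1.19% in AA2P replicates 1, 2 and 3, against 1.32%, 1.13% and 1.33% in control replicates 1, 2 and 3. On this base the groups overlapped and the AA2P mean was the lower one (1.18% ± 0.108 with AA2P and 1.26% ± 0.114 in controls, SD, n = 3 each).

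The nearest relatives of the pair are miR-15a, miR-15b, miR-16, miR-195, miR-424, miR-497 and miR-503, which in mammals share a closely similar 5′ end with it and repress cyclins and other cell cycle genes. Of 9 names on this list 7 were in the table and tested. As a group these 7 held 1818, 1415 and 1437 TPM in AA2P replicates 1, 2 and 3, against 1164, 1092 and 1281 TPM in control replicates 1, 2 and 3. The groups did not overlap, and the pair exceeded the sum of all 7 in every library. There was 4.09, 4.77 and 4.62 times as much of the pair as of the branch in AA2P replicates 1, 2 and 3, against 5.53, 4.84 and 4.99 times in control replicates 1, 2 and 3. On the log2 scale this ratio was lower by -0.19 with AA2P (2.16 ± 0.117 with AA2P and 2.35 ± 0.10 in controls, SD, n = 3 each). A two-sided exact permutation p of 0.1 was obtained (adjusted 0.125), and the groups lay only just apart.

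The members stood on opposite sides of the branch in this comparison. The log2 ratio of miR-103 to the branch differed by -0.23 (2.00 ± 0.112 with AA2P and 2.23 ± 0.0981 in controls, SD, n = 3 each, two-sided exact permutation p = 0.1, adjusted 0.125). That of miR-107 differed by 0.20 (-1.03 ± 0.182 with AA2P and -1.23 ± 0.124 in controls, SD, n = 3 each, two-sided exact permutation p = 0.2, adjusted also 0.2), with overlapping groups. Leaving out 1 library moved the difference of miR-107 to between 0.11 (without AA2P replicate 2) and 0.29 (without AA2P replicate 1).

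Of the 7 branch members 2 were called as higher and none as lower. Of all tested entries 24.7% were called, 19.9% as higher and 4.85% as lower. The median log2 fold change of the branch was 0.32, against 0.25 over all tested entries. miR-503 rose 1.45-fold, with 362.4, 292.6 and 288.5 TPM in AA2P replicates 1, 2 and 3, against 226.8, 209.0 and 215.9 TPM in control replicates 1, 2 and 3 (limma adjusted p = 0.0176). Its groups lay apart, and its call ended in 7 of 18 alternatives, which were 4 of 5 other scalings, no filter on low values (limma adjusted p = 0.0574) and leaving out control replicate 2 or 3 (limma adjusted p = 0.0608 and 0.0705). miR-424-5p, its neighbour in a cluster in human, rose 1.57-fold to 112.7 ± 24.7 TPM with AA2P, against 71.8 ± 6.24 TPM in controls (limma adjusted p = 0.0383). That call ended in 12 of 18 alternatives, among them all 5 other scalings, no filter on low values, no limma trend and leaving out AA2P replicate 3 or any 1 control library (limma adjusted p = 0.0563 to 0.112). miR-16, the most abundant of the branch, stood at 814 ± 125 TPM with AA2P and 634.1 ± 60.6 TPM in controls (limma adjusted p = 0.0984). miR-15b stood at 245.7 ± 22.4 TPM with AA2P and 197.5 ± 22.9 TPM in controls (limma adjusted p = 0.0984). miR-15a stood at 35.6 ± 7.18 and 28.3 ± 4.08 TPM, miR-195 at 23.5 ± 4.32 and 18.8 ± 1.85 TPM, and miR-497 at 10.5 ± 1.80 and 11.2 ± 2.47 TPM, with AA2P first in each case. The branch median was 0.024 to 0.12 under the 5 other scalings, with 3 of the 7 below 0 under quantile normalization and 1 under each of the others. In size the response of miR-107 lay between those of miR-424-5p and miR-503, and that of miR-103 lay below those of 6 of the 7.

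**Figure D4:**
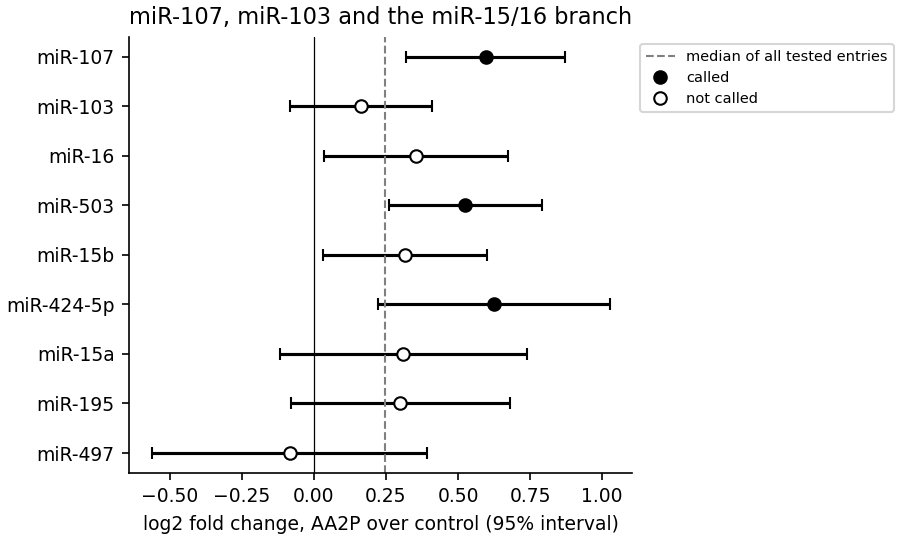
Log2 fold change (AA2P over control, deposited TPM) with the 95% interval from limma for miR-107, miR-103 and the 7 measured members of the miR-15/16 branch. Filled points passed an adjusted p of 0.05, and the dashed line is the median of all tested entries (0.25).

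The miRNAs whose pattern over the 6 libraries was most like that of a member differed between the members. Likeness was the root mean square difference of log2(TPM + 1) after each entry's own mean was taken off, over 202 other known miRNAs with a mean of at least 10 TPM. Scaling a library by 1 factor cancels in it but for the pseudocount. Closest to miR-107 were miR-425-5p (0.0457), let-7c (0.0533), miR-181a (0.0759), miR-769-3p (0.0817) and miR-499-5p (0.0834), the last encoded within a myosin gene in human. miR-425-5p stood at 909.4, 893.8 and 817.9 TPM in AA2P replicates 1, 2 and 3, against 608.5, 532.2 and 601.2 TPM in control replicates 1, 2 and 3, a level and an order close to those of miR-107. All 5 were called as higher, which adds nothing to the call of miR-107, since likeness was measured on the same values. The call of miR-181a held under all 5 other scalings, that of miR-425-5p under 4, those of let-7c and miR-499-5p under 2, and that of miR-769-3p under none. The call of miR-769-3p held without 2 of the 6 libraries left out in turn, and those of the other 4 in all 6.

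Closest to miR-103 were miR-374b-5p (0.0580), miR-361-5p (0.0622), miR-2320-5p (0.0625), miR-660 (0.0644) and miR-340 (0.0667). miR-374b-5p stood at 601.9, 562.7 and 569.1 TPM in AA2P replicates 1, 2 and 3, against 498.6, 438.6 and 546.8 TPM in control replicates 1, 2 and 3. Control replicate 2 was its lowest library, as it was for both members. The distance between miR-103 and miR-107 was 0.224. Placed among the 202, miR-103 would stand 93rd in likeness to miR-107, and miR-107 129th in likeness to miR-103.

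**Figure D5:**
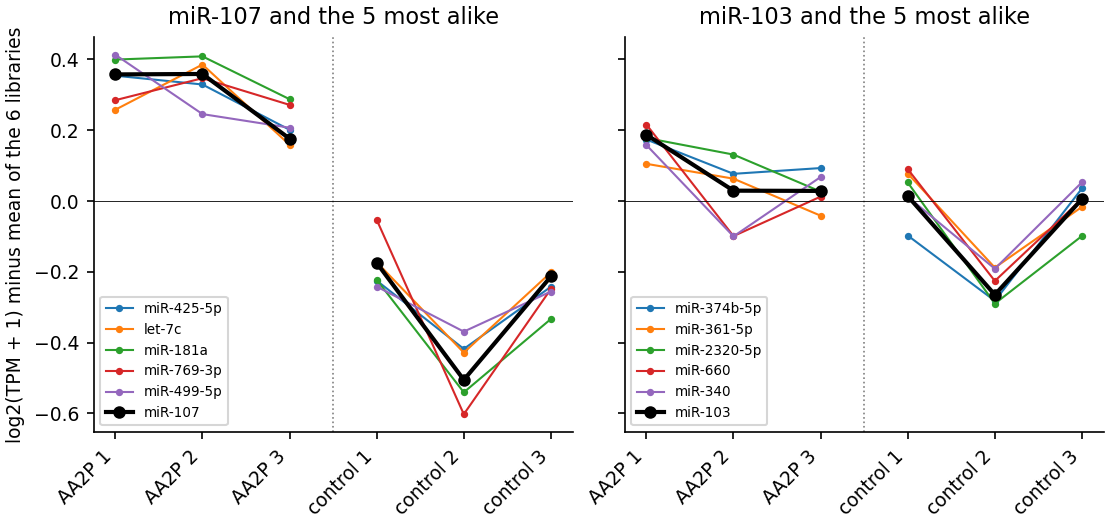
Log2(TPM + 1) minus the mean of the 6 libraries for miR-107 (left, black) and miR-103 (right, black) and the 5 known miRNAs most like each. Lines join libraries of a group only to guide the eye. The values of miR-107 lie above 0 in all AA2P libraries and below 0 in all controls, while miR-103 departs from 0 mainly in AA2P replicate 1 (0.19) and control replicate 2 (-0.26).

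miRNAs that share a known role with the pair did not move as 1 group. The let-7 family, which like the pair represses DICER1 in human cells, had 8 tested members, of which 3 rose (let-7g, let-7f-5p and let-7c) and 5 did not pass, where 19.9% of all tested entries were called as higher (median log2 fold change 0.27 against 0.25 over all tested entries). let-7i-5p, the most abundant of them, stood at 91602 ± 10198 TPM with AA2P and 77168 ± 2686 TPM in controls. let-7f-5p stood at 44951 ± 5924 TPM with AA2P and 33559 ± 1920 TPM in controls, and let-7g at 31535 ± 4175 and 23349 ± 1801 TPM. Neither let-7g nor let-7f-5p was called under any of the 5 other scalings, and with 1 library left out their calls held in 1 and 2 of 6 cases. The count of let-7 members called as higher was 0 or 1 under each of the 5, where 39 to 55 of all 433 tested entries were. let-7c stood at 2893 ± 229 TPM with AA2P and 1998 ± 189 TPM in controls. Among 8 tested miRNAs of glucose and lipid metabolism, miR-375, a miRNA of pancreatic islets, rose, miR-29a-3p and miR-29b fell, and 5 did not pass (median -0.11), where 24.7% of all tested entries were called, 4.85% as lower. Under the other scalings 2 to 4 of the 8 were called as lower, the 4 under median-of-ratios scaling, where miR-378 was among them. Of all 433 tested entries, 36 to 51 were called as lower under those scalings. miR-26a stood at 9596 ± 1285 TPM with AA2P and 8064 ± 879 TPM in controls, and miR-378, encoded in human within PPARGC1B, at 2755 ± 255 TPM with AA2P and 2892 ± 123 TPM in controls. miR-29a-3p stood at 1224 ± 23.2 TPM with AA2P and 1639 ± 159 TPM in controls. miR-375 was not called under any of the 5 other scalings, and its call ended without 4 of the 6 libraries in turn, that of miR-29a-3p without 3 and that of miR-29b without 4.

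Among the intronic miRNAs with a host gene of metabolism or muscle, 2 of 5 names could be tested. Of these 2, 1 was called as higher, where 19.9% of all tested entries were. This was miR-499-5p, at 24.5 ± 1.98 TPM with AA2P and 16.1 ± 0.816 TPM in controls, with its call lost under 3 of 5 other scalings. The other, miR-378, is described above. miR-33b-5p and miR-208b were at or under 0.11 TPM in every library.

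miR-107 is also counted, in human cells, among the p53-induced and the hypoxia-associated miRNAs. Of 7 other tested p53-induced miRNAs, miR-192, miR-194a-5p, miR-215 and miR-34c rose and 3 did not pass, where 19.9% of all tested entries were called as higher (median 1.11 against 0.25 over all tested entries). Of these, miR-192, miR-194a-5p and miR-215 belong to related clusters and were counted as separate entries. The list was written with earlier results of these data known, so its count is not read as a result about p53. miR-192 stood at 2281 ± 230.3 TPM with AA2P and 955.6 ± 55.1 TPM in controls, miR-194a-5p at 642.3 ± 85.8 and 290.8 ± 44.6 TPM, and miR-34a at 384.2 ± 32.2 and 295.5 ± 33.8 TPM. No other scaling kept the call of miR-34c, which also ended in 5 of 6 cases when 1 library was left out. The rise of miR-107 (1.51-fold) was smaller than those of miR-192 (2.39-fold), miR-194a-5p (2.21-fold) and miR-215 (2.48-fold). It was larger than those of miR-34c (1.36-fold) and miR-34a (1.30-fold). Of 8 other tested hypoxia-associated miRNAs, miR-210, miR-23a and miR-155-5p fell and 5 did not pass (median -0.21), where 4.85% of all tested entries were called as lower. The most abundant were miR-26a, given above, miR-27a at 4871 ± 405 TPM with AA2P and 5697 ± 138 TPM in controls, and miR-24-3p at 3031 ± 362 and 3427 ± 184 TPM. With 4 of the 5 other scalings, all but quantile normalization, 5 of the 8 were called as lower, miR-27a (limma adjusted p = 0.00543 to 0.0136) and miR-24-3p (limma adjusted p = 0.0104 to 0.0300) among them. Under those 4 scalings 36 to 51 of the 433 tested entries were called as lower, against 21 in the deposited TPM. miR-210, which hypoxia induces in most human cell types, stood at 70.9 to 90.9 TPM with AA2P and 420.1 to 498.4 TPM in controls. The calls of miR-23a and miR-155-5p ended without 2 of the 6 libraries each.

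Sertoli cells have no defining miRNA here, since their markers (SOX9, WT1, AMH) are mRNAs that small RNA libraries do not measure. Of 7 blood and endothelial miRNAs all were listed, at a summed 89.3 to 122 TPM in AA2P and 101 to 114 TPM in control libraries, mostly miR-126-3p. Of 3 tested, 1 was called as higher, where 19.9% of all tested entries were. This was miR-142-3p, at 1.98 ± 0.627 TPM with AA2P and 0.507 ± 0.0802 TPM in controls. No control library exceeded 0.59 TPM, so it passed the filter of 1 TPM only through the AA2P libraries. It could thus be tested only because it was high there, and its call is not read as a result. That call was lost under 2 scalings and without 5 of the 6 libraries in turn. The other tested entries, miR-486 and miR-126-3p, had lower means with AA2P and overlapping groups, and were not called. Their log2 fold changes were -0.53 (limma adjusted p = 0.118) and -0.079 (limma adjusted p = 0.615). miR-144 did not exceed 0.06 TPM, and miR-223 reached 5.4 TPM in AA2P replicate 1 and was at or under 0.06 TPM elsewhere. Of 6 muscle and myoid miRNAs all were listed. They summed to 219 to 307 TPM in AA2P and 168 to 227 TPM in control libraries, mostly miR-1. Limma called 0 of 4 tested, where 24.7% of all tested entries were called. miR-1 stood at 225.1 ± 41.4 TPM with AA2P and 153.5 ± 24.1 TPM in controls (limma adjusted p = 0.0746). This was a 1.47-fold difference, and its groups did not overlap. The groups of miR-133a-3p, miR-143-3p and miR-145-5p overlapped. miR-133b and miR-206 stayed under 1 TPM and were not tested, and their AA2P libraries all lay above the controls. Among all tested entries, 49.7% had groups that did not overlap, so this is not read as a result about these markers. Of 5 germ cell miRNAs 2 were listed, miR-34c and miR-371-5p. They summed to 213 to 283 TPM in AA2P and 169 to 183 TPM in control libraries. That sum was nearly all miR-34c, since miR-371-5p did not exceed 0.11 TPM. miR-34c is also on the p53-induced list above, so it does not mark germ cells alone. It was the 1 entry tested and was called as higher, as were 19.9% of all tested entries. The part of such cells in the levels of miR-103 and miR-107 was not tested.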

How the data were processed

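Values were TPM with 2 decimals, as the authors deposited them in a single table covering the 6 libraries. Per the submitters' processing notes Bowtie was used, with neither its version nor its role named. Not given in the sources used here were the genome build, the miRBase release, the mismatches allowed and how reads matching several miRNAs were counted. Each library summed to 1000000 TPM within rounding. Low values stepped by 1 amount per library whatever the entry, so no length term was seen. Of values under 20 TPM, at least 99.6% were whole multiples of that step to within 0.0051 TPM (26.3 to 36.7% by rounding alone). The values were kept as TPM and no count test was run.

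The 433 entries (264 known) that reached 1 TPM in 3 or more libraries were tested by limma 3.58.1 in R 4.3.3 on log2(TPM + 1) with a mean-variance trend, two-sided, with Benjamini-Hochberg adjustment over all entries and calls at 0.05. Such fold changes slightly understate those of low entries. Ratios and sums were compared by two-sided exact permutation tests (scipy 1.17.1). Alternatives were other pseudocounts (0.1 and 5), filters, scalings, known miRNAs only, no trend, a replicate block and leaving out each library. The fit relative to miR-103, and each member against the miR-15/16 branch, were added after the values were seen. The fit was run on simulated data of equal depth, not scaled to a shared total. That run does not bear on the choice of scaling. The members and all lists were chosen with earlier results of these data known. Names given were the members, the whole branch, the 3 most abundant entries of each list and the 5 entries most like each member. Other called list entries and the marker miRNAs were named to complete counts, after their values were seen. miRNA sequences were not used here.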

Additional observations from a re-analysis of the deposited data

How the results depend on the processing

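The sign of miR-103 reversed under 4 scalings, to -0.11 (trimmed mean), -0.13 (median of ratios), -0.13 (totals without miR-21-5p) and -0.032 (totals without the 10 most abundant), and the summed pair to differences of -332, -392 and -405 TPM under the first 3. miR-107 kept its direction in 18 of 18 alternatives and its call in 15, the others being 0.32 with trimmed-mean scaling, 0.30 with totals without miR-21-5p and 0.14 with quantile normalization. Without 1 library, its fold change was 0.49 to 0.66, that of miR-103 0.07 to 0.21, that of miR-107 relative to miR-103 0.37 to 0.47, the difference in log2 ratio to the branch -0.23 to -0.12 and that of the sum 529 to 1102 TPM. Against 86 higher and 21 lower calls in all, 57 entries were called with no filter on low values and 62 to 98 without 1 library, fewest without control replicate 3. The deviations of same-numbered libraries correlated at 0.288, 0.0625 and 0.177. As 1 of these is not above 0.1, the libraries were not taken as pairs. That limit does not show them to be unpaired, and 5 of 6 libraries correlated best with their own number. With the replicate block 63 entries were called. miR-107 remained called (limma adjusted p = 0.0435), and the difference of 0.43 between miR-107 and miR-103 was not (limma adjusted p = 0.0530). Among others also not called under the block were miR-424-5p, miR-499-5p, miR-769-3p, let-7g, let-7f-5p and let-7c (limma adjusted p = 0.0510 to 0.119). This left 0 of 8 let-7 members called. Of the metabolic entries 0 were called as higher and 1 as lower with the block, against 1 and 2 without it. Of the p53-induced entries 3 were called as higher, against 4, and of the hypoxia-associated entries 2 as lower, against 3. The exact sign-flip test over same-numbered libraries cannot go below p = 0.25. With quantile normalization the signs of miR-16 (-0.067), miR-195 (-0.066) and miR-34a (-0.013) reversed. miR-26a turned to -0.042, -0.23, -0.047 and -0.029, and let-7i-5p to -0.048, -0.20, -0.053 and -0.035, under median-of-ratios, quantile, totals without miR-21-5p and trimmed-mean scaling, with let-7i-5p called as lower under quantile normalization only. miR-497, at -0.08, was 0.0019 without AA2P replicate 2 and 0.061 without control replicate 1. The planned ratio of the arms of a hairpin could not be run, since no second arm of a member was listed. The cause of these changes was not tested. Counting error was under 1% for both members in every library.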
